A study of Homo sapiens with 4 samples.

Results

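The 10 genes described here encode the enzymes that build, lengthen and desaturate fatty acids, with stearoyl-CoA desaturase (SCD) at their centre. They are SCD, SCD5, ACLY, ACACA, FASN, ELOVL5, ELOVL6, FADS1, FADS2 and FADS3, and they were taken by gene symbol from the 23217 symbols of the deposited transcript table, where they hold 20 of 44578 rows. The set was put together around SCD with its lower value after SNRNP40 depletion already known, so the values below are a description and none was tested. SNRNP40 belongs to the U5 particle of the spliceosome, and the experiment asks which transcripts depend on it.

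The cells were LV-M100, a low-variability subclone of MDA-MB-231, a human breast cancer line, so the model is 1 clone. All 4 libraries came from cells transfected by lipofection, and RNA was taken 48 h later and depleted of ribosomal RNA. In the siControl group, 1 library received the negative control NC1 and 1 the BLOCK-iT Fluorescent Oligo, and in the siSNRNP40 group each of the 2 libraries received a different siRNA against SNRNP40. The authors deposited 1 FPKM per transcript and condition (fragment counts per unit of transcript length and of sequencing depth), in which both libraries of a condition are pooled. No value therefore has an error, the spread between replicates is unknown, and so is the depth.

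The siRNA strands against SNRNP40 define the perturbation and are shown 5′ to 3′ as the labels give them, all in lower case.

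siSNRNP40 #1: ggaauagacaaugauauc

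siSNRNP40 #2: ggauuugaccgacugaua

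SNRNP40 itself stood at 40.4 FPKM in siControl and 6.12 FPKM in siSNRNP40, 84.9% lower. Of 8 genes listed as expressed in a basal, mesenchymal-like line, 7 had a mean of at least 1 FPKM, led by VIM at 742 FPKM, and SPARC did not (0.229 FPKM). The 8 include the keratins KRT8 and KRT18, so the count does not by itself show a basal or mesenchymal state. Of 5 genes listed as low in such a line, ESR1, PGR and CDH1 were below 1 FPKM, while ERBB2 (6.99 FPKM) and EPCAM (10.3 FPKM) were not. Adipocytes, which also make much fat, were represented by 5 markers, and these summed to 0.736 FPKM in siControl and 0.998 FPKM in siSNRNP40. The 3 blood cell markers were also below 1 FPKM. In such bulk RNA, fewer cells expressing a gene and less RNA per cell cannot be told apart.

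Cells make fatty acids in the cytosol from citrate. ATP citrate lyase (ACLY) cleaves citrate to acetyl-CoA, acetyl-CoA carboxylase (ACACA) turns this into malonyl-CoA, and fatty acid synthase (FASN) joins the units into palmitate. ELOVL6 lengthens palmitate to stearate, and SCD and its paralogue SCD5 put the first double bond into these saturated chains, giving the monounsaturated fats of membranes and lipid droplets. FADS2 and FADS1 place further double bonds into dietary polyunsaturated chains, with ELOVL5 lengthening the intermediates. Many of these genes are targets of the SREBP transcription factors, which in lipogenic promoters commonly act together with NF-Y, a factor that binds CCAAT boxes, and with SP1, which binds GC boxes.

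The sequences around the RefSeq start sites of SCD and SCD5 are shown because these paralogues carry out the same reaction and had unlike ratios. Each runs 5′ to 3′ along the gene from 250 bases before to 50 bases after the start site in RefSeq (GRCh38.p14), and was placed on GRCh37 by an exact match. The window of SCD lies on the plus strand at chr10:102106740-102107039, and that of SCD5 on the minus strand at chr4:83719900-83720199. Capitals mark CCAAT boxes (CCAAT) and GC boxes (GGGCGG) on either strand.

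SCD: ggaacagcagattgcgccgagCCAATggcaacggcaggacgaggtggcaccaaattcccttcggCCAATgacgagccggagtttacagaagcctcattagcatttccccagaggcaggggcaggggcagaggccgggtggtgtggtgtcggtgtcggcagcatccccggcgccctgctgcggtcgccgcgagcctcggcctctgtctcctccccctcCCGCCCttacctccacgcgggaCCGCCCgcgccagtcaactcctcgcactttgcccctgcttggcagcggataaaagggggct

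SCD5: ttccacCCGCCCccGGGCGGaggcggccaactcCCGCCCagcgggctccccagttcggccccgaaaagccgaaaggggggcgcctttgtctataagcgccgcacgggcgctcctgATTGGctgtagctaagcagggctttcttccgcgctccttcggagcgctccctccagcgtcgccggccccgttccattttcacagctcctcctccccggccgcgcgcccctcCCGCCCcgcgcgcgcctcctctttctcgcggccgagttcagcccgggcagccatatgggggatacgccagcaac

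The SCD window held 2 CCAAT boxes, which begin 229 and 186 bases before the start site, and 2 GC boxes. This start site lies 218 bases inside SCD from its deposited 5′ end. The CCAAT box nearer the start site and both GC boxes therefore fall within the transcript as deposited, not upstream of it. The SCD5 window held 1 CCAAT box, 135 bases before its start site, and 4 GC boxes. The start site of SCD5 lies 61 bases inside the gene from its deposited 5′ end. RefSeq windows were found for 9 of the 10 genes, 13 windows in all, and FASN had none. A CCAAT box was present in 9 of the 13 windows, against 34.6% of all 35116 RefSeq windows of the same length, and these windows belong to 7 genes (ACLY, ACACA, ELOVL5, SCD, SCD5, FADS2 and FADS3). A GC box was present in 10 of the 13, against 45.0% of all windows, and for every gene with a window but ELOVL5. Both windows of ACLY overlap each other, as do those of FADS2, so the 13 are not independent. The letters TCACNCCAC, a form of the sterol regulatory element, were in none of the 13 windows and in 1.13% of all windows, which says only that these letters are not in this stretch. The letters CACGTG, an E-box, were also searched and were in 1 of the 13 windows (ELOVL5), against 7.26% of all windows. The FADS2 windows lie over 11 kb upstream of the FADS2 start in the deposited table, at 12038 and 11837 bases, and may belong to other transcripts than the one measured. Likewise, the 2 ACACA windows with a CCAAT box lie 50863 and 110210 bases inside the gene from its deposited 5′ end, and its other window had no exact match on GRCh37.

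With the rows of each gene summed, SCD, FADS2 and FASN were the 3 genes lower in siSNRNP40 by more than 0.5 on the log2 scale, and no other of the 10 passed that limit in either direction. For comparison, 5.06% of the 12334 genes with a mean summed FPKM of at least 1 were lower by more than 0.5, and 5.24% were higher by more than 0.5. All 10 enzymes had a mean of at least 1 FPKM. Their log2 ratios (siSNRNP40 over siControl) ran from -1.25 to 0.20 with a median of -0.25, and 8 were below 0, while the median over the 12334 genes was 0.0034 and 49.5% of them were below 0. SCD alone was lower by more than 1, as were 0.657% of all genes. The study set a limit of 1 on single transcripts in either direction, whereas here it was applied to summed genes and to lower values only. Without SCD the median of the other 9 was -0.21, and 2 of them were lower by more than 0.5.

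**Figure D1:**
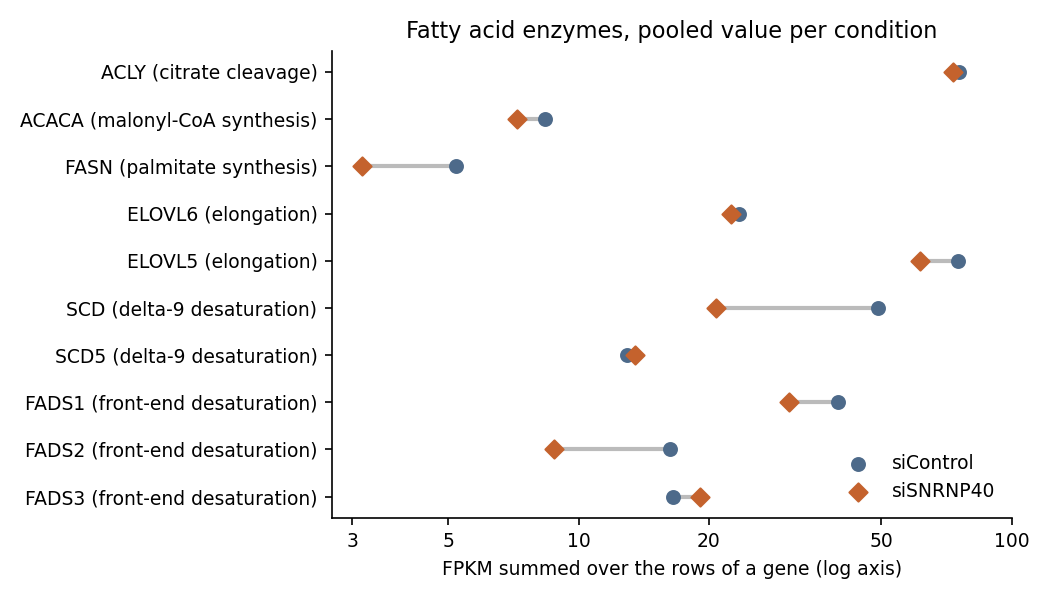
FPKM of each enzyme summed over its rows (log axis) in siControl (circles) and siSNRNP40 (diamonds), 1 pooled value per condition joined by a grey line. The widest gaps are those of SCD (49.2 and 20.7), FADS2 (16.3 and 8.76) and FASN (5.20 and 3.16), while ACLY, ELOVL6 and SCD5 nearly coincide.

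By level in siControl, the genes stood in the order ACLY, ELOVL5, SCD, FADS1, ELOVL6, FADS3, FADS2, SCD5, ACACA and FASN. FPKM is scaled by transcript length, so levels can be set side by side between genes, but only roughly. Reads shared with copies elsewhere or divided between rows can still affect them. Without replicates, no pair of neighbours in this order can be said to differ beyond its spread. ACLY (75.4 FPKM) and ELOVL5 (75.1 FPKM) were almost equal. FASN was the lowest at 5.20 FPKM, although it catalyses the step between ACACA and ELOVL6. In siSNRNP40, SCD moved from the third to the fifth place, behind FADS1 and ELOVL6, and FADS2 dropped behind SCD5.

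Of the enzymes that make palmitate, only FASN passed the limit. FASN, a single row on chromosome 17 (80036214 to 80056106, hg19), stood at 5.20 FPKM in siControl and 3.16 FPKM in siSNRNP40, a log2 ratio of -0.72 or 39.3% lower. ACLY had 75.4 and 73.1 FPKM (log2 ratio -0.05), and ACACA had 8.36 and 7.22 FPKM (-0.21). The ratio of FASN to ACLY was 0.0690 in siControl and 0.0433 in siSNRNP40. Because ACLY is far more abundant, the summed FPKM of ACLY, ACACA and FASN differed by only -0.09 on the log2 scale.

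The elongases were both within the limit. ELOVL5, which acts mainly on polyunsaturated chains, had 75.1 FPKM in siControl and 61.3 FPKM in siSNRNP40 (log2 ratio -0.29). ELOVL6, whose product stearate is the main substrate of SCD, had 23.5 and 22.5 FPKM (-0.06). SCD was therefore 2.10 times as high as ELOVL6 in siControl and 0.919 times as high in siSNRNP40.

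Among the desaturases of saturated chains, SCD and SCD5 went apart. SCD is listed as a single row on chromosome 10 (102106772 to 102124588, hg19), with 49.2 FPKM in siControl and 20.7 FPKM in siSNRNP40. This is a difference of -28.5 FPKM, a log2 ratio of -1.25, or 57.9% lower. SCD5, on chromosome 4 (83550690 to 83720010), had 13.0 and 13.5 FPKM (log2 ratio 0.06). SCD thus made up 79.2% of the FPKM of both desaturases in siControl and 60.5% in siSNRNP40. Their sum was 62.2 and 34.2 FPKM, a log2 ratio of -0.86. The same sum gave -0.31 for the 3 FADS genes and -0.23 for the elongases. Of the 62.3 FPKM by which the 10 enzymes together were lower, 28.5 FPKM belonged to SCD.

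The reads of SCD have a possible second source. Its canonical transcript in GENCODE (5245 bases) aligned over 99.8% of its length, at 95.7% identity, to chromosome 17 of GRCh37 (20687687 to 20692923), where the processed pseudogene SCDP1 is annotated. No row of the deposited table overlaps this copy, so fragments that arose there or were placed there have no value of their own. Their part in the level of SCD was not tested. A shorter match on chromosome 5 covered 5.61% of the SCD transcript at 94.2% identity. ELOVL6 matched chromosome X in 2 adjoining pieces, over 18.0% and 13.2% of its transcript at 93.1% and 90.4% identity. FASN matched chromosomes 1 and 5, over 7.74% and 8.03% of its transcript, and the other 7 genes had no match elsewhere.

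The FADS genes lie side by side on chromosome 11 and differed in direction. FADS2, which encodes the desaturase that opens the route to long polyunsaturated fatty acids, had 16.3 FPKM in siControl and 8.76 FPKM in siSNRNP40 (log2 ratio -0.89, 46.2% lower). FADS1, which acts later in the same route, had 39.8 and 30.7 FPKM (-0.38). FADS3, which acts on sphingolipid bases, had 16.6 and 19.0 FPKM (0.20). FADS2 and FADS3 were nearly equal in siControl, with a ratio of 0.983, and FADS2 was at 0.460 of FADS3 in siSNRNP40. In the deposited table FADS1 ends 11184 bp before FADS2 begins, and FADS3 begins 6173 bp after FADS2 ends, so the 3 listed transcripts do not overlap. GENCODE also annotates longer forms, in which FADS2 begins at 61560452 and FADS1 ends at 61596790, and these do overlap on opposite strands. The library kit marks strand, and the strand setting of the authors' mapping is not given in the sources used here.

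**Figure D2:**
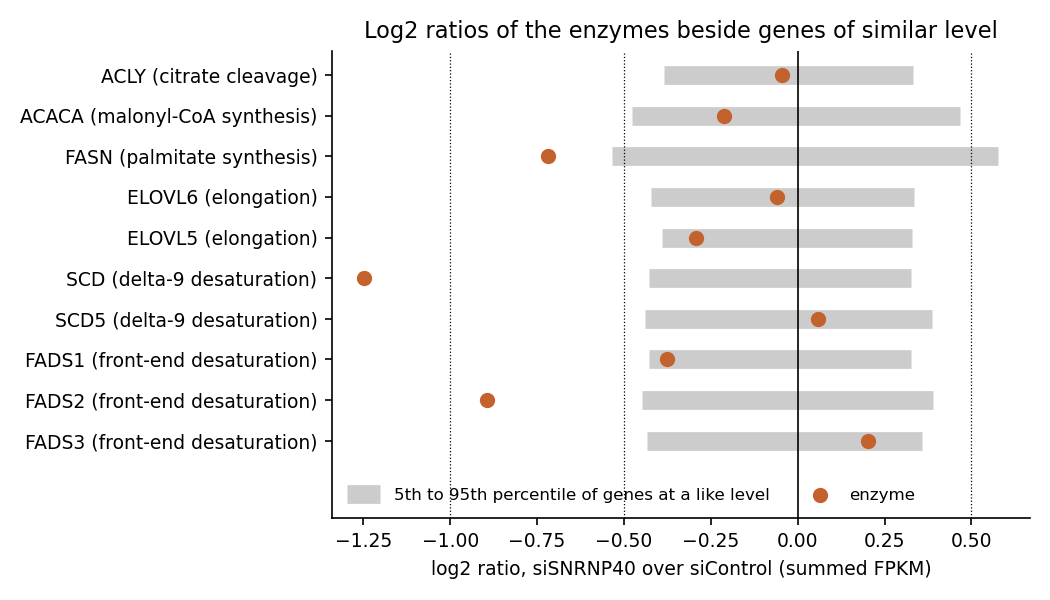
Log2 ratio of siSNRNP40 over siControl for each enzyme (points, summed FPKM), with the 5th to 95th percentile of all genes whose mean FPKM was within 2-fold of that enzyme (grey bars) and dotted lines at -1, -0.5 and 0.5. SCD (-1.25), FADS2 (-0.89) and FASN (-0.72) lie to the left of their bars and the other 7 lie within theirs.

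Ratios scattered more among weakly expressed genes, so each enzyme was also set among genes of its own level. The 5th and 95th percentiles were -0.53 and 0.58 for genes at the level of FASN, and -0.39 and 0.33 for genes at the level of ELOVL5. Of 3343 genes with a mean FPKM within 2-fold of that of SCD, 4 had a log2 ratio at or below it, SCD included (0.120%). For FADS2 this was 19 of 4581 genes (0.415%), and for FASN 73 of 3868 (1.89%). FADS1 came next, with 228 of 3333 genes (6.84%) at or below its log2 ratio. These shares place the pooled values in the table and are not tests between the conditions. Over all 12334 genes SCD ranked 40 from the lowest log2 ratio, FADS2 117 and FASN 229.

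Among the 6394 genes with a mean of at least 10 FPKM, SCD was the seventh lowest. Immediately below it were PTBP3 (log2 ratio -1.32), a regulator of splicing, ENPP1 (-1.37), an ectonucleotidase of the cell surface, and MIR5047 (-1.42). Immediately above it were C14orf129 (-1.14), IDI1 (-1.11), an isomerase of the cholesterol pathway, and SNORD59A (-1.10). PTBP3, MIR5047, C14orf129 and SNORD59A had means between 10.3 and 10.9 FPKM, near the minimum of 10 FPKM. ENPP1 was also close to SCD in level, with 49.0 FPKM in siControl and 18.9 FPKM in siSNRNP40. Likeness here rests on a single ratio between the conditions.

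Genes near the 3 lowest enzymes were also listed. Only 0.316% of the 12334 genes were lower than SCD, so a few neighbours cannot show whether its value is shared in the region. Within 200 kb of SCD, 9 genes had a mean of at least 1 FPKM, and their log2 ratios lay between -0.27 and 0.31. Near FADS2, 5 genes outside the FADS cluster reached that level, with log2 ratios from -0.42 to 0.24, and FEN1, a nuclease of DNA replication, had 57.0 and 57.4 FPKM (0.01). Of the 17 such neighbours of FASN, DCXR was lower by more than 0.5 (-0.51) and ALYREF, an mRNA export factor, was higher (0.63). Among all genes past the same filter, 5.06% were lower and 5.24% higher by more than 0.5. These neighbours were chosen by position after the table had been seen.

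The gene models of the 3 lowest enzymes differed in their number of introns. In GENCODE the canonical transcript of SCD has 5 introns, that of FADS2 has 11 and that of FASN has 42. FADS1 and FADS3 have 11 introns as well. ACACA, with 55 introns, and ACLY, with 28, had log2 ratios of -0.21 and -0.05. In the deposited table SCD spans 17.8 kb, FASN 19.9 kb and FADS2 39.1 kb. FADS1 (17.4 kb, log2 ratio -0.38) and FADS3 (18.0 kb, 0.20) are as short as SCD and were within the limit. Also within it were the other 5 enzymes, which are all longer, from 52.1 kb (ACLY) to 325 kb (ACACA). A link between gene structure and the ratios was not tested.

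Transcripts of a gene share reads, which the authors' software divides between them by a model. SCD, FASN, FADS1, FADS2 and FADS3 are listed with a single row each, so no such division affects them within their own gene. Among these 5 single-row enzymes 3 were lower by more than 0.5, against 5.32% of the 7052 single-row genes that passed the filter. SCD, around whose known lower value the set was put together, is 1 of the 3, so this count is only a description. The other 5 enzymes have 2 to 5 rows. Over all 20 rows, 18 had a mean of at least 1 FPKM, and 2 of the 18 had an absolute log2 ratio above 1, close to the 10.5% of all 16691 rows that did.

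Besides SCD, the row past 1 was an ACACA transcript. This row, TCONS_00017570, had 2.13 FPKM in siControl and 0.593 FPKM in siSNRNP40, a log2 ratio of -1.84. Its mean of 1.36 FPKM was near the filter of 1 FPKM. The main ACACA row, TCONS_00017571, went the other way, with 2.92 and 3.93 FPKM (0.43). The former made up 25.4% of ACACA in siControl and 8.21% in siSNRNP40, and the latter 34.9% and 54.4%. If ACACA is represented by its main row alone, its log2 ratio turns from -0.21 to 0.43. The deposited table does not describe the exons of its rows, so the forms behind these values are not named here.

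The rows of the remaining enzymes kept similar shares. ELOVL5 had 4 rows, the main one at 64.1% of the gene in siControl and 59.9% in siSNRNP40. A minor ELOVL5 row, TCONS_00034411, had 0.984 and 0.0213 FPKM and a mean below 1 FPKM. The shares of both rows moved by 1.15 percentage points in ACLY, 0.542 in ELOVL6 and 1.34 in SCD5. In these 3 genes all rows had log2 ratios between -0.07 and 0.09. The loci of ELOVL5 and ACACA also hold rows of RPS16P5 and C17orf78, with mean values of 1.66 and 0.357 FPKM.

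**Figure D3:**
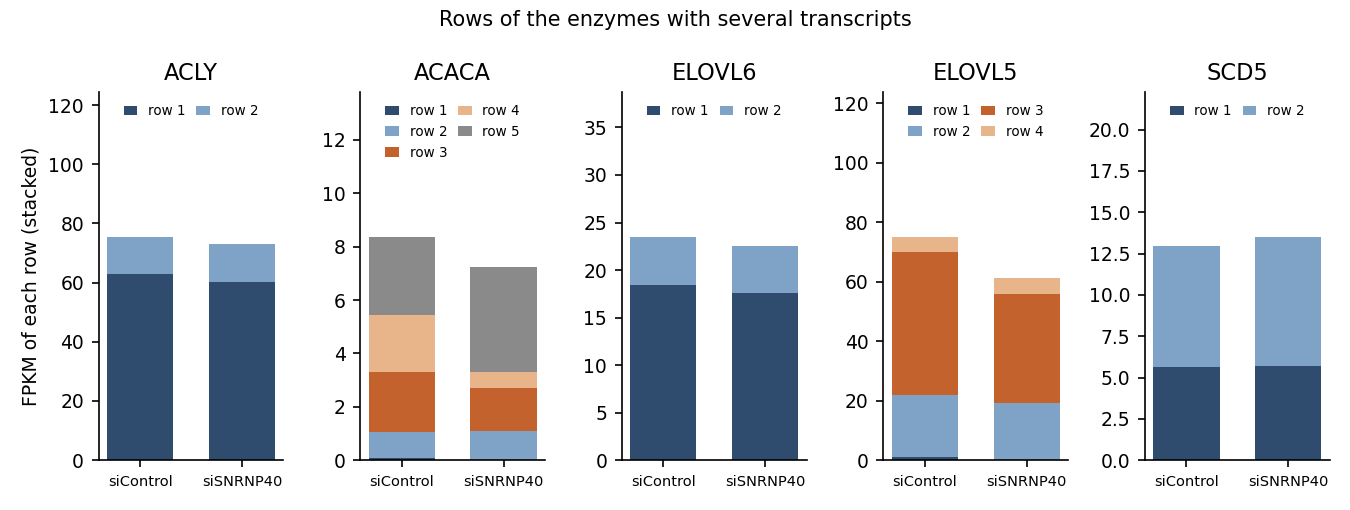
FPKM of every deposited row, stacked, in siControl and siSNRNP40 for the 5 enzymes with more than 1 row, numbered in the order of their identifiers. In ACACA row 4 shrinks from 2.13 to 0.593 FPKM while row 5 grows from 2.92 to 3.93 FPKM, and the rows of the other genes keep similar proportions.

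Lists of related genes give the setting of these values. Of 76 genes in 7 lists, 65 had a mean summed FPKM of at least 1, and 6 of the 65 were lower by more than 0.5 and 1 was higher, against 5.06% and 5.24% of all genes. With each gene represented by its most expressed row, 11 of the 65 were lower and 4 higher, against 887 and 1021 of 12132 genes. Over the 65 genes the median log2 ratio was -0.13.

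Activation and extension enzymes outside the 10 had a median log2 ratio of -0.04 over the 12 of 17 genes that passed the filter. ACSS2, which makes acetyl-CoA from acetate, was the only one past 0.5, with 9.72 FPKM in siControl and 6.65 FPKM in siSNRNP40 (-0.55). Mitochondrial fatty acid synthesis, a separate pathway that supplies lipoate, had none past 0.5 among 5 genes, from MCAT (-0.20) to NDUFAB1 (0.17).

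The transcription factors of lipid synthesis and the proteins that sense sterol for them had a median of -0.19 over 11 of 13 genes, with none past 0.5. INSIG1, which retains SREBP in the endoplasmic reticulum and is itself an SREBP target, was the lowest, with 61.0 and 43.5 FPKM (-0.49). NR1H3, the liver X receptor alpha, was the highest (0.15). SREBF1, which encodes the SREBP most tied to fatty acid genes, had 5.30 and 3.97 FPKM (-0.42), and SREBF2 had 4.0 and 3.05 FPKM (-0.39). These last 2 genes were named for their role, after their values had been seen.

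Of 5 genes that supply NADPH and citrate, IDH1, a cytosolic source of NADPH, was lower by more than 0.5, with 48.4 FPKM in siControl and 27.7 FPKM in siSNRNP40 (-0.81). The highest of the 5 was PGD (0.03). Glycerolipid and lipid droplet genes had 1 of 14 on each side. LPIN1, a phosphatidate phosphatase, had 27.4 and 17.8 FPKM (-0.63), and DGAT2, which completes triglyceride synthesis, had 0.991 and 2.26 FPKM (1.19). DGAT2 had a mean of 1.62 FPKM, near the filter of 1 FPKM.

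Uptake and oxidation of fatty acids, the opposite arm of metabolism, had none past 0.5 among 10 of 13 genes, with FABP5, a carrier of fatty acids in the cytosol, the highest (0.34). All 8 SREBP targets on the sterol side were below 0, with a median of -0.36, and 3 of them were lower by more than 0.5, against 49.5% of all genes below 0 and 5.06% lower by more than 0.5. The 3 were IDI1 (63.6 and 29.4 FPKM, -1.11), FDFT1 (-0.61) and HMGCS1 (-0.52), while LSS was the highest at -0.21. This list, like the others, was chosen with earlier results of these data known, so its counts are a description.

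**Figure D4:**
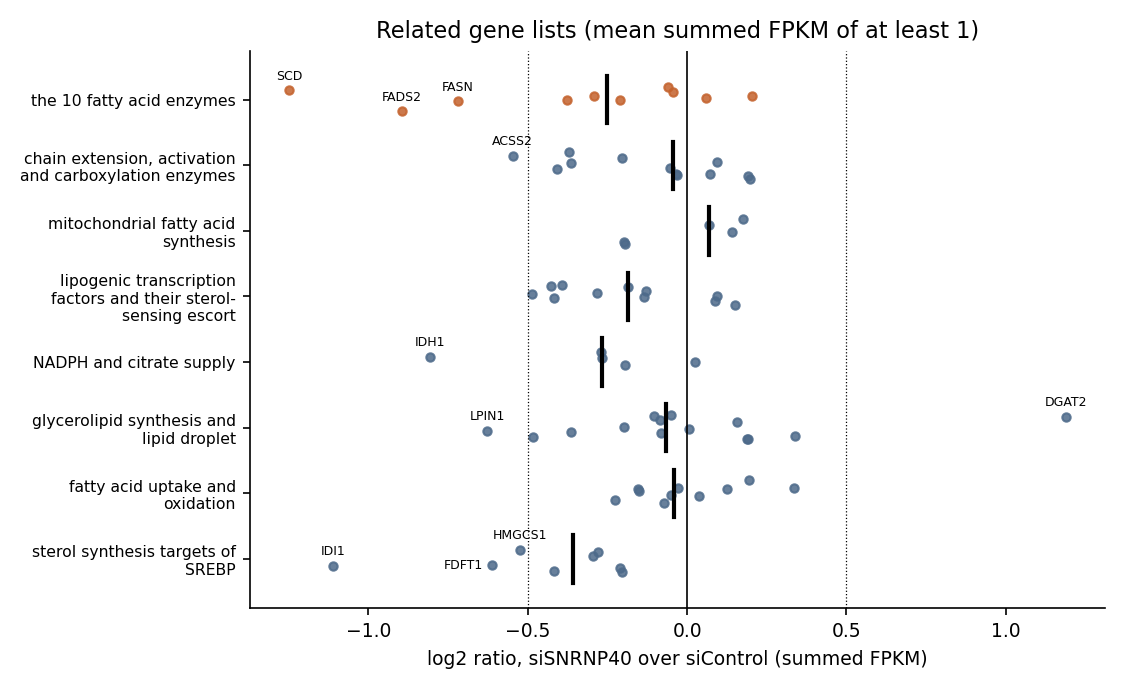
Log2 ratio of siSNRNP40 over siControl for each gene (points, summed FPKM, mean of at least 1 FPKM) of the 10 fatty acid enzymes and of 7 related lists, with the median of each list as a black bar, dotted lines at -0.5 and 0.5, and names for genes past them. The sterol list has all 8 points below 0, and DGAT2 (1.19) is the only named gene above 0.5.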

How the data were processed

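RNA of LV-M100 cells was sequenced in 2 siControl and 2 siSNRNP40 libraries, grouped by their titles. Per the labels and the paper's methods, the authors removed linkers and poor bases (cutadapt 1.2.1), aligned to hg19 (TopHat2 2.0.8), and quantified transcripts with Cufflinks and Cuffdiff 2.0.2. The deposited values are FPKM per transcript, with the libraries of a condition pooled. The fold changes, test statistics, p-values and q-values of the authors' own comparison are also in the table and were not used.

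FPKM was summed over the rows of a gene symbol, and log2 ratios of siSNRNP40 over siControl were taken without a pseudocount among genes or rows with a mean of at least 1 FPKM. Ratios past 0.5, or past 1, the limit that the study set on transcripts, were counted. With 1 pooled value per condition no new test could be run here beside the authors' own, depth is unknown and no interval can be given. The members and lists were chosen with earlier results of these data known. Genes named are the 10 enzymes, SNRNP40, list genes past 0.5 or else the highest and lowest of a list, and the 3 genes on either side of SCD in the order of ratios, with exceptions said in the text, and 1 value is not reported here.

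Start coordinates in the table count from 0 and are printed from 1. Gene models came from GENCODE release 44 on GRCh37, which has the coordinates of hg19. Canonical transcripts were aligned to the genome with minimap2 2.31 (preset asm20). Promoter windows came from RefSeq, and motifs were searched on both strands. The counting step was tested on simulated data. Python 3.11.15, numpy 2.4.6, pandas 2.3.3 and matplotlib 3.10.9 were used. Alternatives changed the pseudocount, scaling, filter, limit and summing.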

Additional observations from a re-analysis of the deposited data

How the results depend on the processing

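No paired analysis was possible because only 1 pooled FPKM per condition is given, and leaving out a replicate was not possible for the same reason. A log2 value was counted as moved at a change of 0.1 or more, and a count at more than 1.5 times. The log2 ratio of SCD lay between -1.25 and -1.21 with a pseudocount of 1, both scalings and the most expressed row, and the last of these cannot move a gene with a single row. The median of the enzymes lay between -0.25 and -0.21 in all 7 alternatives. Where all 10 were kept it lay between -0.25 and -0.22. It was -0.21 over 9 enzymes, both at a mean of at least 5 FPKM and without SCD. The number of enzymes lower by more than 0.5 was 3, became 2 of 9 at a mean of at least 5 FPKM, which leaves out FASN, and was 1 with a limit of 1. Their rows past 1 were 2 of 18, 3 of 19 without a filter and 1 of 13 at a mean of at least 5 FPKM. List genes past 0.5 were 7, became 15 (11 lower) with the most expressed row, 12 without a filter and 2 with a limit of 1. All genes past 0.5 were 1270, and 711 with a pseudocount of 1, 1908 with the most expressed row, 4183 without a filter, 501 at a mean of at least 5 FPKM, 181 with a limit of 1 and, in an alternative added once the data had been seen, 782 in genes with a single row. Upper-quartile scaling split the 1262 genes past 0.5 into 529 lower and 733 higher, against 624 and 646. Of 36 values of the other 9 enzymes under 4 alternatives, 34 moved by less than 0.1. FASN was -0.58 with a pseudocount of 1, and ACACA was 0.43 with the most expressed row. For the rest the cause was not tested.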
